A study of Homo sapiens with 6 samples.

Results

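Genes of the amino acid response and the aminoacyl-tRNA synthetases were read in EJ/T24 cells, an established line from an invasive human bladder cancer, after transfection with a FOXA1 construct. The set holds 64 genes on 134 probesets, of 19775 genes on 54613 probesets read on the array. Of these, 32 were named one by one and the other 32 are the cytosolic (17) and mitochondrial (15) synthetases, taken by symbol. Synthetases without a probeset annotated to them alone were not analysed here. The rule uses gene symbols and no measured value.

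The experiment comprised 6 HG-U133 Plus 2.0 arrays, 3 of FOXA1 transfected cells and 3 of control cells that received empty plasmid, named pUC19 in the sample labels and an empty vector in the methods. The comparison was made to learn which transcripts differ once a line with low FOXA1 is given this pioneer factor, which opens chromatin for other regulators. Both groups were one cell line under the same growth medium, transfected with Lipofectamine in dishes before confluence, and no source used here says that transfected cells were selected. The methods describe transfections in triplicate, but the labels do not say from which dish or day each array came, so each p-value is set against the scatter of these arrays alone, part of which may be technical. In these bulk samples fewer cells with a transcript and less of it per cell cannot be told apart.

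When amino acids run short, uncharged tRNAs activate the kinase GCN2, and misfolded proteins in the endoplasmic reticulum activate the kinase PERK. Both phosphorylate the initiation factor eIF2alpha, which slows translation in general and favours that of ATF4. ATF4 then pairs with C/EBP proteins on a composite promoter element and drives genes for amino acid synthesis, amino acid uptake and the charging of tRNAs. The kinases act on proteins, and an array reads only the transcripts that follow.

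The promoter element is shown first because ATF4 acts through it, although a match in letters is not a bound site. The letters TGATGNAA were searched on both strands of RefSeq promoter windows (GRCh38.p14), each running 250 bases before to 50 bases after a start site. They were found in 1270 of 35116 windows (3.62%) and in 556 of 15384 genes read with a window (3.61%), against 17 of the 55 members with a window (30.9%). Several members are known as ATF4 targets through this element, so the share is no independent result. The synthetases were taken by symbol, and how far the choice of members accounts for the share was not tested. In the sequences below, capitals mark the match, read along the strand of the gene, and a match that begins with TT is the element on the other strand.
ASNS: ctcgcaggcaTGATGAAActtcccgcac
CHAC1: tcccctgccgTTGCATCActcctgccag
CEBPG: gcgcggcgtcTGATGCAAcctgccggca
SLC1A5: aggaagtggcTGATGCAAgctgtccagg
SLC7A1: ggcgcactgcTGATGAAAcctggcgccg
TARS1: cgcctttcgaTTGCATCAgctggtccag
IARS1: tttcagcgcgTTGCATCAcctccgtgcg
AARS1: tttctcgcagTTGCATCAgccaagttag

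The ASNS window lies at chr7:97872459-97872486 on the minus strand, with the match starting 68 bases before the start site. That of CHAC1 lies at chr15:40953252-40953279 on the plus strand, 209 bases before its start site. The TARS1 match, at chr5:33440957-33440984 on the plus strand, starts at base 3 of the transcript. The remaining members with a match were CARS1, GARS1, MTHFD1L, NARS1, PPP1R15B, SLC1A4, SLC38A1, SLC3A2 and YARS2, so 7 of the 27 synthetases with a window held one.

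The forkhead letters TGTTTAC, a core that FOXA proteins recognise, were in 1202 of 35116 windows (3.42%), in 579 of the 15384 genes (3.76%) and in 2 of the 55 members (3.64%). Those members were SLC1A5, at chr19:46785025-46785051, and CARS1, at chr11:3041077-3041103. Their windows are shown because FOXA1 is the transfected factor, and a match in letters is not a bound site.
SLC1A5: gggtagccttGTAAACAcagatgcata
CARS1: tctgttgaatTGTTTACactaaacaca

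FOXA1 itself was read by the brighter of its 2 probesets only. Its signals were 38.9, 34.8 and 31.9 in FOXA1 transfected cells, against 21.8, 24.4 and 21.0 in controls. Values are linear MAS5 signals in arbitrary units, scaled so that arrays share a trimmed mean of 100. All FOXA1 transfected arrays were above all controls, yet the log2 difference (FOXA1 minus control as labelled) of 0.65 ± 0.23 (SE) did not pass limma (adjusted p = 0.307), and such signs run opposite to those in the study's own list of changed genes. Directions here follow the sample labels, as the FOXA1 signals do, and were the labels of the groups exchanged, every higher and lower given here would turn round. The sources used here do not say whether the probeset reads the stretch of FOXA1 carried by the vector. KRT18, VIM and CD44, which this mesenchymal-like carcinoma line expresses, were bright, while KRT19 and EPCAM were near the background. The 3' over 5' signal ratio of ACTB, a measure of RNA integrity and priming, was 2.11 to 2.52 in FOXA1 transfected cells and 1.54 to 1.92 in controls, without overlap, and its part in the results was not tested. The 13 markers of leukocytes, endothelium, muscle, nerve and erythroid cells summed to 166.6 to 179.8 in FOXA1 transfected cells and 123.0 to 156.9 in controls, with 10 of 13 log2 differences above 0 and 11 of 13 markers under the median signal, and their part was likewise not tested.

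No member passed the test. Of the 64 genes, each read by its brightest probeset, 0 had an adjusted p under 0.05 in limma, against 19 of 19775 genes (0.0961%), and the smallest, that of WARS1, was 0.196. SAM, the test named in the methods and rewritten here, called 3 probesets on the array. None was the brightest of a gene, so 0 of all 19775 genes and no member were called. At an unadjusted p under 0.05, 6 members were higher in FOXA1 transfected cells (9.18% of all genes were) and 7 were lower (5.53% of all genes were). Most genes are dimmer than the members. Of the 5458 genes with mean signals between the members' quartiles, 611 were higher and 746 lower by the same measure. By mean signal, 61 of 64 members were above the median probeset signal of 14.5, and SHMT1, MTHFD1L and SLC6A9 were below it. A signal above this median need not give a precise value, as the 95% interval of VLDLR ran from -0.83 to 1.08. The log2 difference of 41 members was within 0.2 of 0. On the brightest probeset and the deposited scale, the 95% interval lay within 0.5 of 0 on both sides for 44 members. This limits the size of that reading alone. PSAT1 (-0.57), SESN2 (0.70), AARS2 (-0.74) and EARS2 (0.504) were among them and differed by more than 0.5 on another probeset.

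Counted by overlap of the arrays, 6 members had all FOXA1 transfected arrays above all controls and 11 had all of them below. Over all genes these shares were 12.5% and 7.26%. Among the 5458 genes whose mean signal lay between the quartiles of the members' signals they were 13.0% and 16.2%. The members below were 9 of the 32 synthetases together with PHGDH and PYCR1. Such counts turn on how arrays are scaled. With each array centred on its median, 2 members were wholly above and 4 wholly below, against 4.9% and 8.88% of all genes.

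The median log2 difference was 0.01 over the members, 0.07 over all genes and -0.01 over the genes of similar signal. Of the members, 36 were above 0 and 28 below, but 30 and 34 with quantile normalization and 12 and 52 with arrays centred on their medians. Centring moved the median of all genes to -0.11, so groups of genes are better compared with other genes on the same scaling. The members' median lay 0.06 below that of all genes with all 3 scalings (-0.06 each). For centring this follows from the equal shift of every gene. On the deposited scale the members' median was above that of the genes of similar signal (0.01 against -0.01). The latter was not computed for the other scalings.

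**Figure D1:**
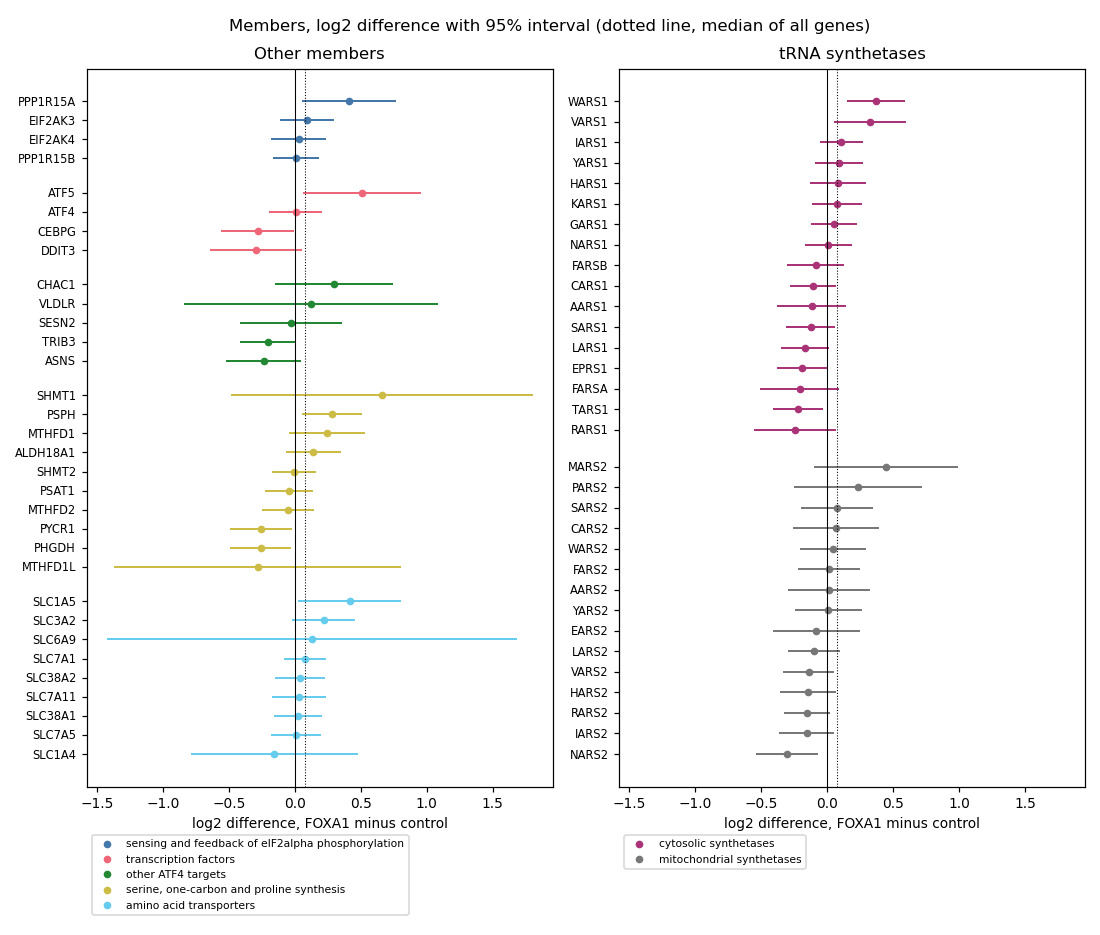
Log2 difference in signal (horizontal axis, FOXA1 minus control) of the 64 genes, by role, with synthetases on the right. Points are limma estimates from 3 arrays per group, bars are 95% intervals and the dotted line is the median of all genes (0.07). Of the 64 intervals, 51 cover 0.

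Of the kinases that sense the shortage and the phosphatase subunits that end the response, PPP1R15A had the widest separation. PPP1R15A, also known as GADD34, which directs a phosphatase to eIF2alpha as feedback, gave 63.2, 65.6 and 60.6 in FOXA1 transfected cells and 47.0, 42.6 and 53.3 in controls. The groups did not overlap, and the log2 difference was 0.41 ± 0.16 (SE, adjusted p = 0.354). EIF2AK3, which encodes PERK, gave 214.2, 212.9 and 203.1 against 203.0, 199.5 and 188.7 in controls, a narrow separation of 0.09 ± 0.09 (SE, adjusted p = 0.753). EIF2AK4, which encodes GCN2, overlapped between groups, with 392.7 ± 21.2 in FOXA1 transfected cells and 385.7 ± 31.6 in controls (SD, n = 3 each). PPP1R15B, the constitutive counterpart of PPP1R15A, differed by 0.01. All 4 genes were above 0 on the deposited scale and with quantile normalization, but 1 was with arrays centred on their medians.

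ATF4 was among the brighter transcripts and was level between the groups. Its signals were 3198.0, 3516.1 and 3215.5 in FOXA1 transfected cells and 3198.1, 3683.4 and 3029.5 in controls. The log2 difference was 0.01, with a 95% interval of -0.19 to 0.20 (adjusted p = 0.988). Much of the control of ATF4 is known to lie in its translation, which an array does not read. The other transcription factors went in different directions without passing the test.

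DDIT3, which encodes CHOP and marks a prolonged response, gave 144.5, 187.9 and 144.2 in FOXA1 transfected cells and 224.5, 207.8 and 154.9 in controls (log2 difference -0.29 ± 0.15, SE, adjusted p = 0.510). The second FOXA1 array was above the lowest control, so the groups overlapped. CEBPG, a partner of ATF4 on the composite element, gave 199.5, 225.3 and 182.1 against 252.4, 276.9 and 210.3 in controls (-0.28 ± 0.12, SE, adjusted p = 0.421). Its other probeset was level, with means of 171.2 against 176.3 in controls (-0.05). ATF5, a related factor under the same translational control, gave 85.7, 110.5 and 138.0 against 89.8, 59.6 and 84.9 in controls (0.51 ± 0.20, SE, adjusted p = 0.366). Another probeset of ATF5 over 14.0 in signal differed by 0.09, and with the remaining 2, which were dimmer, the median over its 4 probesets was -0.05. Without the second control array the difference of the brightest was 0.32.

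Classical targets of ATF4 did not move one way. ASNS, asparagine synthetase and a common readout of the response, gave 1458.0, 1348.6 and 1158.1 in FOXA1 transfected cells and 1527.3, 1857.6 and 1306.0 in controls (-0.23 ± 0.13, SE, adjusted p = 0.521). Without the second control array, its highest, the difference was -0.10. TRIB3, a pseudokinase induced with CHOP, gave 446.2, 410.7 and 375.0 against 499.8, 473.1 and 445.6 in controls (-0.21 ± 0.09, SE, adjusted p = 0.427). Only the first FOXA1 array of TRIB3 reached into the control range, by less than 1 unit of signal. CHAC1, which breaks down glutathione, gave 57.3, 60.3 and 45.5 against 35.8, 52.5 and 45.1 in controls (0.30 ± 0.20, SE, adjusted p = 0.618). Of the remaining targets of this group, SESN2, a leucine sensor that restrains mTORC1, differed by -0.03 and VLDLR, a lipoprotein receptor, by 0.12 at signals close to the median of the array.

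**Figure D2:**
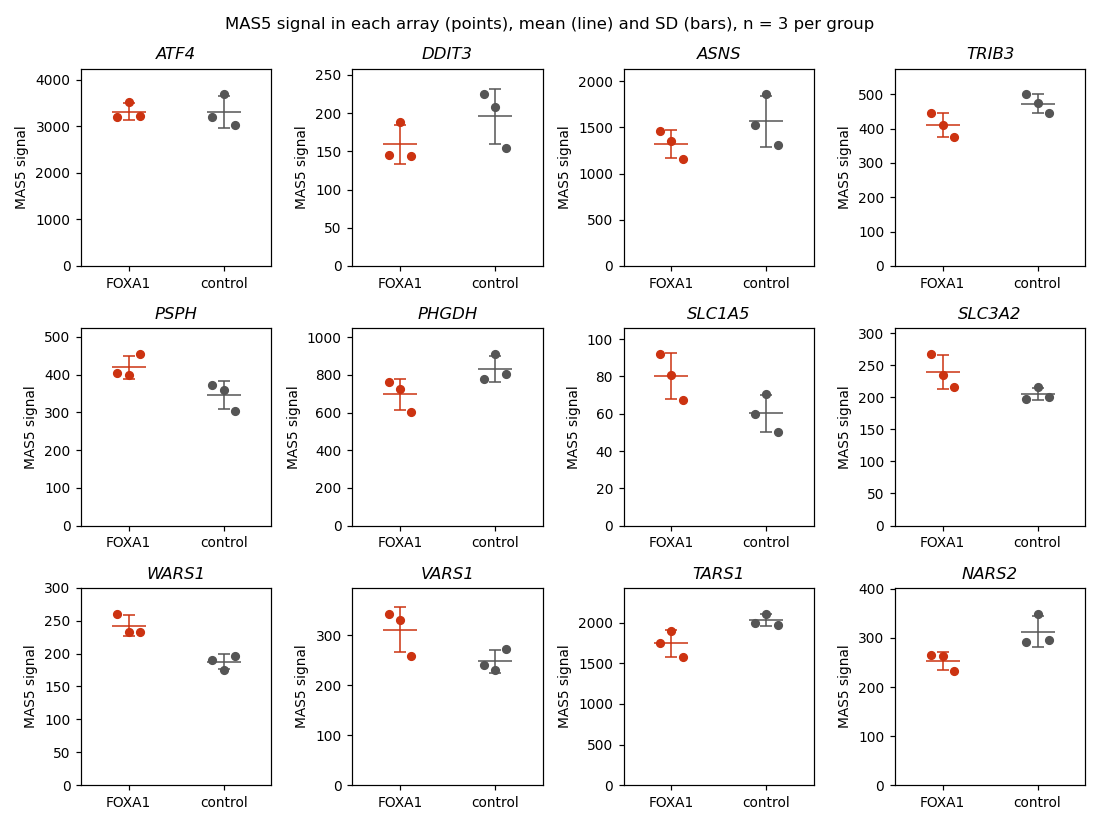
MAS5 signal (vertical axis, arbitrary units, from 0) of 12 members in each array, FOXA1 transfected cells on the left and controls on the right of each panel. Points are arrays, lines are means and bars are SDs (n = 3 each). WARS1 and PSPH are separated upwards, PHGDH, TARS1 and NARS2 downwards, and ATF4 is level.

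The enzymes of serine synthesis, which branch from glycolysis, split on their brightest probesets. PHGDH, the entry step, gave 761.8, 726.6 and 605.3 in FOXA1 transfected cells and 780.5, 911.7 and 807.0 in controls, without overlap (-0.26 ± 0.10, SE, adjusted p = 0.364). PSPH, the last step, was separated the other way, with 403.3, 399.8 and 455.1 against 372.7, 360.5 and 303.9 in controls (0.28 ± 0.10, SE, adjusted p = 0.317). Its next brightest probeset was level (0.02) and its dimmest differed by 0.41, both with overlapping groups. PSAT1, the step between them, overlapped, with 2380.0 ± 78.8 in FOXA1 transfected cells and 2453.0 ± 185.5 in controls (SD, n = 3 each). On the brightest probesets, higher and lower values therefore stood side by side within one pathway, and none passed the test.

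PYCR1, which closes the synthesis of proline, gave 200.8, 186.8 and 170.9 in FOXA1 transfected cells and 226.7, 234.7 and 203.9 in controls, again without overlap (-0.25 ± 0.10, SE, adjusted p = 0.388). ALDH18A1, which opens that pathway, differed by 0.14 with overlapping groups. The folate enzymes MTHFD1 (cytosolic) and MTHFD2 (mitochondrial) differed by 0.24 and -0.05. SHMT2, which moves a carbon from serine to folate in mitochondria, differed by -0.01, with a 95% interval of -0.17 to 0.15. SHMT1 and MTHFD1L, its cytosolic relative and a mitochondrial folate enzyme, were too dim for a useful value, with intervals of -0.48 to 1.79 and -1.36 to 0.79. Of the 10 genes of serine, one-carbon and proline synthesis, 4 were above 0 and 6 below.

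Of the 9 amino acid transporters, 8 were above 0 on the deposited scale, 6 with quantile normalization and 2 with arrays centred on their medians. SLC1A5, a glutamine carrier with both promoter motifs shown above, gave 92.1, 80.7 and 67.6 in FOXA1 transfected cells and 60.0, 70.4 and 50.1 in controls. Its lowest FOXA1 array lay under its highest control, and the log2 difference was 0.42 ± 0.17 (SE, adjusted p = 0.401). SLC3A2, the heavy chain shared by several exchangers, gave 267.7, 234.4 and 215.5 against 197.8, 216.2 and 200.9 in controls (0.22 ± 0.10, SE, adjusted p = 0.466). Its light chain partners were level: SLC7A11, the cystine carrier, differed by 0.03 (95% interval -0.17 to 0.23) and SLC7A5, the leucine carrier, by 0.01 (-0.17 to 0.19).

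SLC7A1, a carrier of arginine and lysine, was separated by a small margin, with 1273.8, 1288.0 and 1346.6 in FOXA1 transfected cells and 1236.5, 1256.0 and 1217.0 in controls (0.08 ± 0.07, SE, adjusted p = 0.736). SLC38A2, a starvation-regulated carrier of neutral amino acids, and its relative SLC38A1 differed by 0.04 and 0.03. SLC1A4, which carries alanine and serine, differed by -0.16 with wide scatter among controls (28.9 to 70.8). SLC6A9, a glycine carrier, was in the background range.

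The synthetases, which join each amino acid to its tRNA, had 16 genes above 0 and 16 below, with a median of -0.04. With each array centred on its median, 4 were above and 28 below, beside 7602 and 12173 of all genes. Of the 32, 2 were wholly above controls and 9 wholly below on the deposited scale (6.25% and 28.1%, against 13.0% and 16.2% of genes of similar signal). Without overlap and downwards there were 5 of the 32 with quantile normalization (15.6%, against 8.92% of all genes) and 4 with centring (12.5%, against 8.88%). On the deposited scale the share of all genes was 7.26%, under that of genes of similar signal. The latter share was not computed with the other scalings, so whether the synthetases exceed it there is not known.

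WARS1, the cytosolic tryptophan enzyme, which interferon gamma also induces, had the smallest p of the set. Its signals were 260.9, 233.1 and 233.5 in FOXA1 transfected cells and 190.8, 175.1 and 196.9 in controls, so that the lowest of the FOXA1 transfected arrays stood well clear of the highest control. The log2 difference was 0.37 ± 0.10 (SE, 95% interval 0.16 to 0.58, adjusted p = 0.196, and 0.113 to 0.712 over the limma alternatives). Its second probeset differed by -0.08. VARS1, the valine enzyme, gave 343.9, 330.1 and 259.4 against 240.3, 230.2 and 273.0 in controls (0.32 ± 0.12, SE, adjusted p = 0.343), with the third FOXA1 array inside the control range. IARS1, the isoleucine enzyme, was wholly above controls by a smaller amount (0.11 ± 0.07, SE, adjusted p = 0.613).

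TARS1, the threonine enzyme, was the clearest of those lower among the cytosolic synthetases. It gave 1757.3, 1902.5 and 1578.0 in FOXA1 transfected cells and 2003.5, 2114.7 and 1979.0 in controls, without overlap (-0.22 ± 0.08, SE, adjusted p = 0.344), while its other, dim probeset was wholly above controls (0.29). EPRS1, which charges both glutamate and proline, differed by -0.19 ± 0.08 (SE, adjusted p = 0.420), also without overlap. LARS1 (leucine) and CARS1 (cysteine) were wholly below controls as well, by -0.17 and -0.11. The other cytosolic enzymes overlapped between groups and ran from -0.24 for RARS1 to 0.09 for YARS1.

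Among the mitochondrial enzymes, 5 of 15 were wholly below controls (7.26% of all genes and 16.2% of those of similar signal were) and none wholly above. With quantile normalization 3 of the 15 were wholly below, beside 8.92% of all genes. With arrays centred on their medians 2 were, beside 8.88% of all genes. The share of genes of similar signal was not computed with these scalings. NARS2, which charges mitochondrial asparagine tRNA, gave 264.6, 262.4 and 232.3 in FOXA1 transfected cells and 292.6, 349.9 and 296.2 in controls (-0.30 ± 0.10, SE, adjusted p = 0.294). RARS2, the arginine enzyme, gave 603.8, 620.6 and 637.0 against 650.9, 706.3 and 710.1 in controls (-0.15 ± 0.08, SE, adjusted p = 0.492), and its other probesets over 14.0 in signal differed by -0.04 and -0.25. Its remaining 3 probesets, in the background range, bring the median over all 6 to 0.41. VARS2, HARS2 and LARS2 differed by -0.14, -0.15 and -0.10. Every array of these genes from FOXA1 transfected cells was under every control, by margins that were small beside the signal. MARS2, the methionine enzyme, went the other way with overlap, at 42.4, 38.0 and 44.6 against 26.5, 24.8 and 43.3 in controls (0.45 ± 0.24, SE, adjusted p = 0.533).

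Read array by array, the mitochondrial group was the more even. The median deviation of its 15 genes from their own means over the 6 arrays was -0.01, -0.01 and -0.04 on the log2 scale in FOXA1 transfected cells and 0.03, 0.05 and 0.06 in controls. The median of the genes' own differences was nevertheless 0.01, above 0, so these summaries differ in sign. For the cytosolic enzymes the same deviations were 0.05, 0.02 and -0.10 in FOXA1 transfected cells and 0.01, 0.04 and -0.01 in controls. The third FOXA1 array was the lowest, and without it the median difference of the cytosolic enzymes was 0.01 in place of -0.09. Without the second control array it was -0.02.

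**Figure D3:**
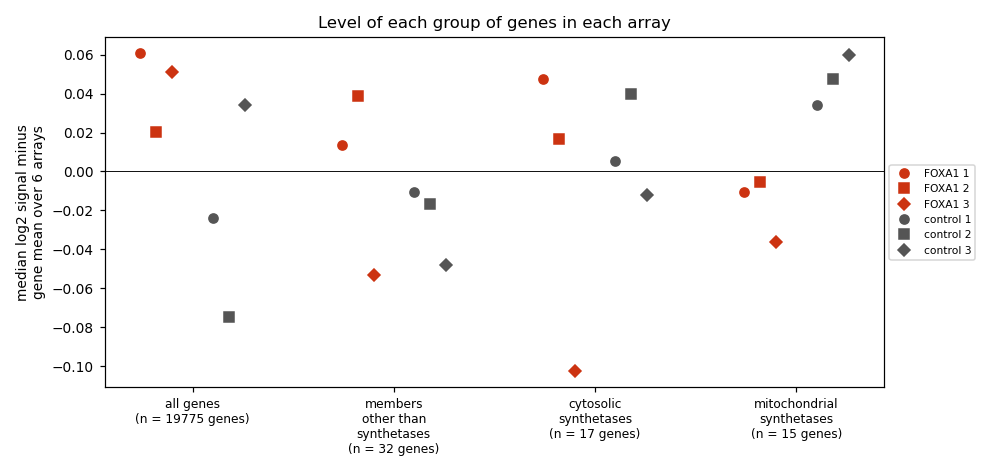
Median log2 deviation from each gene's mean over the 6 arrays (vertical axis) for all genes, members other than synthetases, cytosolic and mitochondrial synthetases. Each symbol is 1 array, FOXA1 transfected cells left of controls. The third FOXA1 array is lowest for the cytosolic enzymes (-0.10), and the mitochondrial enzymes separate by group.

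Other probesets of the same genes served as a second reading, although they share the RNA and the array. The members had 70 further probesets, of which 47 had a mean signal over 14.0, that is 4 times the 20th percentile of all signals. Of these, 29 had the same sign as the brightest probeset and 18 the opposite sign, and none passed the test. Wholly above controls were 5 and wholly below were 6, where 11.1% and 8.14% of all such further probesets on the array were.

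For several genes the readings parted. SHMT2 had a probeset wholly above controls (0.17) and another wholly below (-0.30) beside its brightest (-0.01). PSAT1, level on its brightest probeset (-0.04), gave 404.7, 336.9 and 245.9 in FOXA1 transfected cells and 428.4, 532.1 and 485.3 in controls on the other (-0.57 ± 0.16, SE, adjusted p = 0.209). The dimmer probesets of SESN2 (0.70), EARS2 (0.50) and FARSA (0.42) were wholly above controls and that of AARS2 (-0.74) wholly below, although their brightest probesets differed by -0.03, -0.08, -0.21 and 0.01. These last genes were singled out after their values were seen. Probesets can read different transcript ends or isoforms, and which they read here was not tested.

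**Figure D4:**
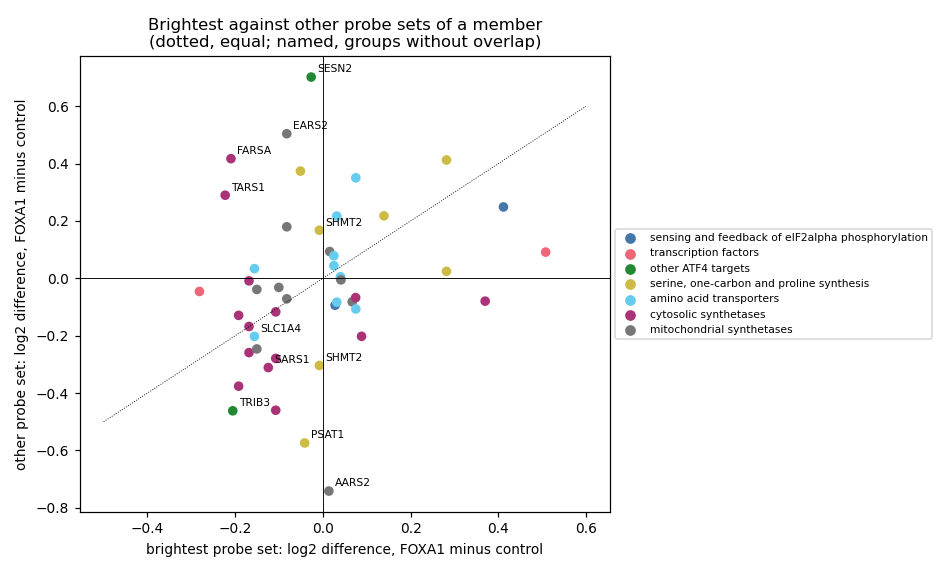
Log2 difference (FOXA1 minus control) of the brightest probeset of a member (horizontal axis) against that of each other probeset over 14.0 in mean signal (vertical axis), coloured by role. The 11 named points have groups that do not overlap, and 29 of 47 points have the same sign on both axes.

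Members with and without a match to the ATF4 element in the window searched were set side by side, with no test between them. TRIB3, SESN2 and VLDLR, given above among targets of ATF4, had no match there. The 2 groups therefore do not divide targets of ATF4 from other genes. The 17 genes with a match had a median log2 difference of 0.01, ran from -0.28 to 0.42, and had 10 above 0 and 7 below. The 38 members with a window and no match showed 21 above 0 and 17 below, at a median of 0.01, and ran from -0.30 (NARS2) to 0.66 (SHMT1, which was dim). All genes read with a match had a median of 0.07. On their brightest probesets CEBPG, ASNS and TARS1, shown above, were lower in FOXA1 transfected cells. SLC1A5 and CHAC1, also with a match, were higher. Each was short of the threshold.

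**Figure D5:**
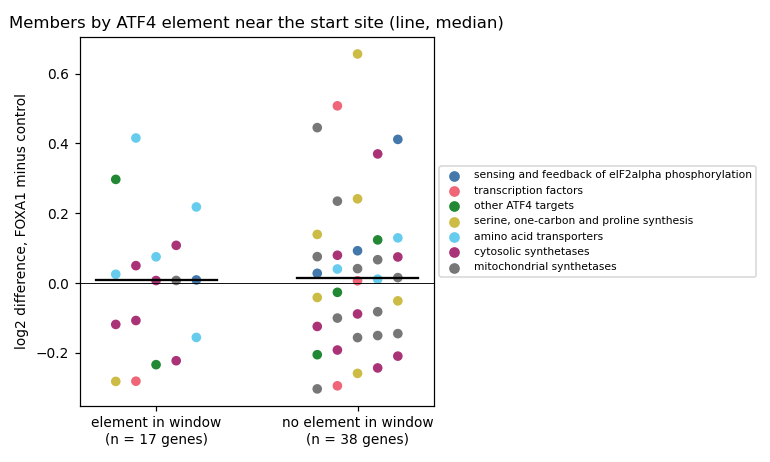
Log2 difference (vertical axis, FOXA1 minus control) of members by match to the element in their promoter window. Those with a match (17 genes) are on the left and those without (38 genes) on the right, coloured by role. Lines are medians, both 0.01, and the highest point is 0.42 on the left and 0.66 on the right.

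The wider pathway was read from lists of 109 further genes, of which 101 were on the array. None passed the test by limma, and SAM called no gene by its brightest probeset. At an unadjusted p under 0.05, 9 were higher and 12 lower (9.18% and 5.53% of all genes were). Of the 5458 genes with signals between the members' quartiles, 611 were higher and 746 lower. Of the 101 genes, 48 were above 0 and 53 below, and the median was -0.0044. DDIT4, which inhibits mTORC1 and is induced by ATF4, hypoxia and glucocorticoids, stood out most. Its signals were 1116.0, 870.7 and 677.0 in FOXA1 transfected cells and 1740.6, 1606.7 and 1457.3 in controls, with no overlap. The log2 difference was -0.88 ± 0.15 (SE, adjusted p = 0.0786, and 0.0130 to 0.539 over the limma alternatives). It passed once the dimmer probesets (mean signal of 14.5 or less) had been removed, and again without the first FOXA1 array, where the difference was -1.06.

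Among other known products of the response, GDF15, a secreted stress hormone, gave 187.3, 160.2 and 184.3 in FOXA1 transfected cells and 298.9, 205.8 and 216.6 in controls (-0.42 ± 0.14, SE, adjusted p = 0.288). Without the first control array the difference was -0.26, and on its brightest probeset outside the class prone to cross-hybridisation it was -2.01. Over the limma alternatives the adjusted p of GDF15 was 0.156 to 0.651, so neither reading passed the test. FGF21, a hormone of the fasted liver, was in the background range in both groups (1.53 ± 0.32 and 7.37 ± 3.72, SD, n = 3 each). Around eIF2 itself, EIF2AK1, the haem-regulated kinase, and EIF2B1, a subunit of the exchange factor that phosphorylated eIF2 blocks, were wholly above controls by 0.27 and 0.26 (adjusted p = 0.274 and 0.269). IMPACT, an inhibitor of GCN2, was wholly below by -0.23 (adjusted p = 0.369). With arrays centred on their medians, EIF2AK1 and EIF2B1 differed by 0.09 and 0.08.

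Of the amino acid sensing genes of mTORC1, LAMTOR2, a subunit of its lysosomal anchor, differed by -0.25, TSC1, an inhibitor of the pathway, by 0.23 and CASTOR2, a relative of an arginine sensor, by 0.44. Of the partners of the synthetases, SEPSECS, the last enzyme in making selenocysteine tRNA, differed by -0.59 with overlap, AIMP1, a scaffold of the multi-synthetase complex, by -0.07 and GATC, a subunit that amidates mitochondrial glutamine tRNA, by 0.11. None of these 6 had an adjusted p under 0.3.

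Carriers and enzymes held the smallest p-values after DDIT4 in these wider lists. SLC25A22, a mitochondrial glutamate carrier, gave 94.6, 95.2 and 88.2 in FOXA1 transfected cells and 63.7, 57.9 and 59.8 in controls (0.62 ± 0.13, SE, adjusted p = 0.123). SLC1A3, a glutamate carrier of the plasma membrane, gave 61.5, 72.5 and 68.9 against 39.9, 42.5 and 52.3 in controls (0.60 ± 0.17, SE, adjusted p = 0.219). ARG2, mitochondrial arginase, gave 176.2, 185.4 and 145.3 against 203.2, 285.8 and 243.1 in controls (-0.52 ± 0.14, SE, adjusted p = 0.197). Each was without overlap and short of the threshold. PYCR3, a further proline enzyme, differed by 1.21 ± 0.38 (SE) at signals of 27.3 to 45.2 in FOXA1 transfected cells and 9.6 to 27.0 in controls, and GOT1, a transaminase that makes aspartate, by -0.22. SLC38A4, with signals of 0.1 to 6.9 over both groups, was in the background range.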

How the data were processed

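RNA was hybridised to 6 HG-U133 Plus 2.0 arrays. The authors deposited 1 MAS5 signal per probeset and array, a linear intensity. Their methods describe RMA log2 values and SAM, so a different summary of the same arrays was tested here. The methods and labels differ on the vector and Lipofectamine product. No detection calls were used. Members and lists were chosen with earlier results of these data known.

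After 62 array control probesets were left out, 54613 were converted to log2, with 25 zeros replaced by 0.1 (chosen once the values were known). Groups, from the labels, were compared two-sided with limma 3.58.1 in R 4.3.3 (lmFit, eBayes with intensity trend), with Benjamini-Hochberg adjustment over all probesets and a threshold of 0.05. A gene was read by its brightest probeset. Platform annotation gave 1 symbol to 41091 probesets, several to 1801 (not used) and none to 11721, and symbols were updated to RefSeq. Within the members, genes were named for passing the threshold, as the 3 of smallest p in each role, as known readouts, or where probesets without overlap opposed each other, and in each wider list as the 3 of smallest p. Others are given by their values. The fit was tested on simulated data. Alternatives were limma without trend, SAM (written for this work, 20 splits), quantile normalization, median centring, a floor on low signals, 16 added before log2, probeset filters, the median over probesets, a replicate block, and each array left out. The number of arrays limits precision.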

Additional observations from a re-analysis of the deposited data

How the results depend on the processing

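No member and no synthetase passed the threshold under any of the 16 alternatives run, in which between 0 and 96 of all genes did (96 with probesets at or under the median signal left out, 28 with any of a gene's probesets counted, against 19). The smallest adjusted p of a member ran from 0.113 to 0.607 over the limma alternatives, and the smallest SAM q was 0.622. The medians of gene groups depended on scaling. With arrays centred on their medians they were -0.17 for all members, -0.16 for members other than synthetases, -0.27 for cytosolic and -0.17 for mitochondrial synthetases, and with quantile normalization -0.045 for all members and -0.017 for mitochondrial synthetases. Taking the median over the probesets of a gene put the cytosolic synthetases at 0.0037. Leaving out 1 array at a time gave -0.0099 to 0.012 for all members, -0.11 to 0.0095 for cytosolic and -0.093 to 0.011 for mitochondrial synthetases.

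With centring every difference fell by 0.18 on the log2 scale, which left 0.10 for PSPH, 0.036 for SLC3A2, 0.14 for VARS1, 0.19 for WARS1 and 0.05 for TSC1, and widened the negative ones. Several differences changed sign. Centring turned EIF2AK3 (-0.090), EIF2AK4 (-0.15), SLC7A1 (-0.11), ATF4 (-0.18), SLC7A11 (-0.15) and GATC (-0.075), and quantile normalization turned ATF4 (-0.079) and SHMT2 (0.032). The median over probesets turned EIF2AK4 (-0.033), ATF5 (-0.051), TARS1 (0.034) and RARS2 (0.41). Leaving out 1 array at a time gave -0.030 to 0.088 for EIF2AK4, -0.054 to 0.087 for ATF4, -0.013 to 0.12 for SLC7A11 and -0.028 to 0.017 for SHMT2. Among larger differences, 1 array moved these by over 1.5 times: without the first FOXA1 array SLC3A2 was 0.13, without the third PHGDH was -0.16 and ASNS -0.14, without the first control DDIT3 was -0.19 and CHAC1 0.15, without the second control MARS2 was 0.30 and CASTOR2 0.22, and without the third control DDIT3 was -0.45, ASNS -0.36 and MARS2 0.70. The cause was not tested. Replicate numbers are shared by the groups, but equal numbers did not pair the arrays: correlations of deviations from the group means were 0.0022, 0.038 and 0.011, and only the second FOXA1 array correlated best with its own number. With the replicate block, 0 members and 50 genes were called, DDIT4 among them (-0.88, adjusted p = 0.0130). The medians and differences of the members were the same as without the block. With 1 array of each group per replicate number, this follows from the design.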
